A study of Homo sapiens with 6 samples.

Results

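The genes described here are 42 genes of the mitotic kinases, the kinetochore and the spindle, taken by name from the 58302 genes in the deposited tables. They were measured by RNA-seq in SK-N-BE (2), a human neuroblastoma cell line, after knockdown of Prp19. There were 3 samples transfected with a negative control small interfering RNA (siNC) and 3 transfected with an siRNA against Prp19 (siPrp19), numbered 1 to 3 in each group. All 6 samples were of the same line and had received an siRNA by lipid transfection. The sample labels give 72 h as the time after transfection, which differs from the time in the methods of the study. Values are FPKM, fragments per kilobase of gene length relative to sequencing depth, so levels can be set side by side between genes as well as between samples. All 42 genes passed a minimum mean of 1 FPKM over the 6 samples, as did 14462 genes in all. Changes are given as siPrp19 minus siNC on the scale log2(FPKM + 0.1).

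Mitosis separates the duplicated chromosomes. Cyclin-dependent kinase 1 with the A- and B-type cyclins drives entry, the Aurora and Polo kinases build the spindle, and the kinetochore, a protein assembly on each centromere, holds the microtubules. A checkpoint delays anaphase until every kinetochore is attached. Many of these genes are transcribed late in the cell cycle, and their messages are scarce in cells that do not divide, so in a mixed culture a lower value can come from fewer dividing cells or from less RNA in each cell, and these cannot be told apart in bulk RNA. Prp19 is a ubiquitin ligase of the spliceosome, and its loss is known to disturb mitosis. The question put to the data was whether the level of any of these genes moved when Prp19 was depleted.

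The messages of this program are commonly switched on through a pair of short promoter elements, the cell cycle genes homology region (CHR) and the CCAAT box. Both were searched as letters in RefSeq promoter windows of 300 bases, 250 before and 50 after the start (build GRCh38.p14), which were given for 35 of the 42 genes. TTTGAA, on either strand, lay in 23 of the 35 windows (65.7%) and in 15.4% of all 27305 windows. Its variant TTCGAA, which reads the same on both strands, lay in 3 of the 35 (8.57%) and in 1.45% of all. CCAAT, on either strand, lay in 28 of the 35 (80.0%) against 35.7%, and at least 2 copies lay in 15 (42.9%) against 11.3%. A CHR or its variant together with CCAAT was present in 21 of the 35 (60.0%) against 6.58% of all windows. A CCAAT can share at most 1 end base with the other elements, and a match is a description of the window, not a binding site. The 8 stretches of 30 bases here run 5′ to 3′ on the strand of the gene with the CHR or its variant in capitals. They are shown because the genes span the changes described further on, from CCNB2 and CDCA5, which were higher in every pair, to CDK1, PRC1 and KIF23, which were lower.
CCNB2, chr15:59105105-59105134, plus strand: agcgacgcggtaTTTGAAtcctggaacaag
CDCA5, chr11:65084049-65084078, minus strand: cagggcgggtaaTTCGAAcgttttttgcag
CDK1, chr10:60778158-60778187, plus strand: gagtataataaaTTTGAActgtgccaatgc
PRC1, chr15:90994538-90994567, minus strand: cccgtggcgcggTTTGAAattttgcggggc
KIF23, chr15:69414282-69414311, plus strand: ctgattggcccgTTTGAAatgcgccaggcg
PLK1, chr16:23678848-23678877, plus strand: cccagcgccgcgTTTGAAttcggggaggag
BUB1B, chr15:40161034-40161063, plus strand: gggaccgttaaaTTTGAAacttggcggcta
KIF4A, chrX:70290058-70290087, plus strand: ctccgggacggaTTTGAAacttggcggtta

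The BUB1B and KIF4A stretches share a run of 16 bases across the element, atttgaaacttggcgg. In CCNB2 the capitals start 29 bases before the start, with CCAAT, on either strand, at 54, 87, 120 and 244 bases before it. CDK1 has its TTTGAA farther out, 161 bases before the start, with a CCAAT at 150 bases before it. The changes of genes with and without the element overlapped. The 25 genes with a CHR or its variant had a median change of −0.06 on the log2 scale (−0.27 to 0.15), the 10 genes with neither had −0.10 (−0.26 to 0.05), and the 7 genes with no window had −0.06. Both the 3 genes higher in every pair and 12 of the 20 genes lower in every pair were among the 25.

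PRPF19, the gene of Prp19, was lower in every siPrp19 sample. In replicates 1, 2 and 3 its level was 53.1, 53.1 and 64.9 FPKM with siNC, against 21.8, 28.5 and 33.6 FPKM with siPrp19. The siPrp19 mean was 49.0% of that with siNC, and the groups did not overlap (exact two-sided permutation p = 0.10, the smallest that 3 against 3 samples allow). All 10 neuroblastoma markers were at 3.49 FPKM or more in every sample. MYCN ranged from 801 to 1215 FPKM, HAND2 from 268 to 350 FPKM and PHOX2A from 284 to 458 FPKM. Of the markers of other cell types, PTPRC, PECAM1, ALB and CD3E were at most 0.195 FPKM in any sample, EPCAM at most 2.48, and HBB reached 15.4 in siNC replicate 1. The reads that the FPKM values stand for, recovered as described in the methods, came to 19058784 to 21943936 per siNC sample and 22273025 to 24181789 per siPrp19 sample. Each of the 42 genes rested on 199 to 18599 reads per sample, with the fewest for CENPI, CENPK and CENPM.

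Most of the 42 genes were slightly lower after Prp19 depletion, and none passed the test for a change. Their mean change over the 3 pairs of same-numbered samples was below 0 for 36 genes and above 0 for 6, against 51.0% of all genes below 0. The median change was −0.07, against −0.004 for all genes tested, and the changes ran from −0.27 for KIF14 to 0.15 for CCNB2. The median moved with single libraries, to −0.158 without siPrp19 replicate 3, −0.157 without siNC replicate 2, −0.027 without siNC replicate 3 and −0.038 without siPrp19 replicate 1. By limma on log2(FPKM + 0.1), 0 of the 42 genes passed an adjusted p of 0.05, and 0 of all 14462 genes did (0.0%). An unadjusted p under 0.05 was reached by 225 genes in limma, with 0 of the 42 among them, whose smallest unadjusted value, that of NUF2, was 0.065. PRPF19 itself, with a log2 change of −1.04 (standard error 0.19), had an adjusted p of 0.9999 in this limma fit. Samples with the same number deviated together, so the same test was made with a replicate block. With it, limma called 0 genes, and 11 of the 42 were lower and 0 higher at an unadjusted p under 0.05, where 8.77% of all genes were lower at that level. The smallest adjusted p of the 42 was then 0.202 by limma with the block. Over the 42 genes the 95% intervals of the change in this fit reached from −0.55 to 0.30 at their outer ends, for CENPI and CCNB2.

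Counted pair by pair, 20 of the 42 genes were lower in all 3 pairs, against 21.3% of all genes tested. Only CCNB2, BUB1 and CDCA5 were higher in all 3 pairs (3 of 42, against 19.2% of all genes), and 19 genes were mixed. Pair 1 carried the most genes to the lower side, 39 of 42 with a median of −0.15, while pair 2 had 23 lower with a median of −0.02 and pair 3 had 33 lower with a median of −0.09. Over all genes these medians were −0.023, −0.004 and 0.009. For 6 genes every siPrp19 sample lay below every siNC sample (2.84% of all genes), namely CDK1, CENPF, NUF2, KIF20A, KIF23 and PRC1. For 1 gene, CCNB2, every siPrp19 sample lay above every siNC sample (2.77% of all genes). With 3 samples a group, none of these 7 can reach an exact permutation p below 0.10.

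**Figure D1:**
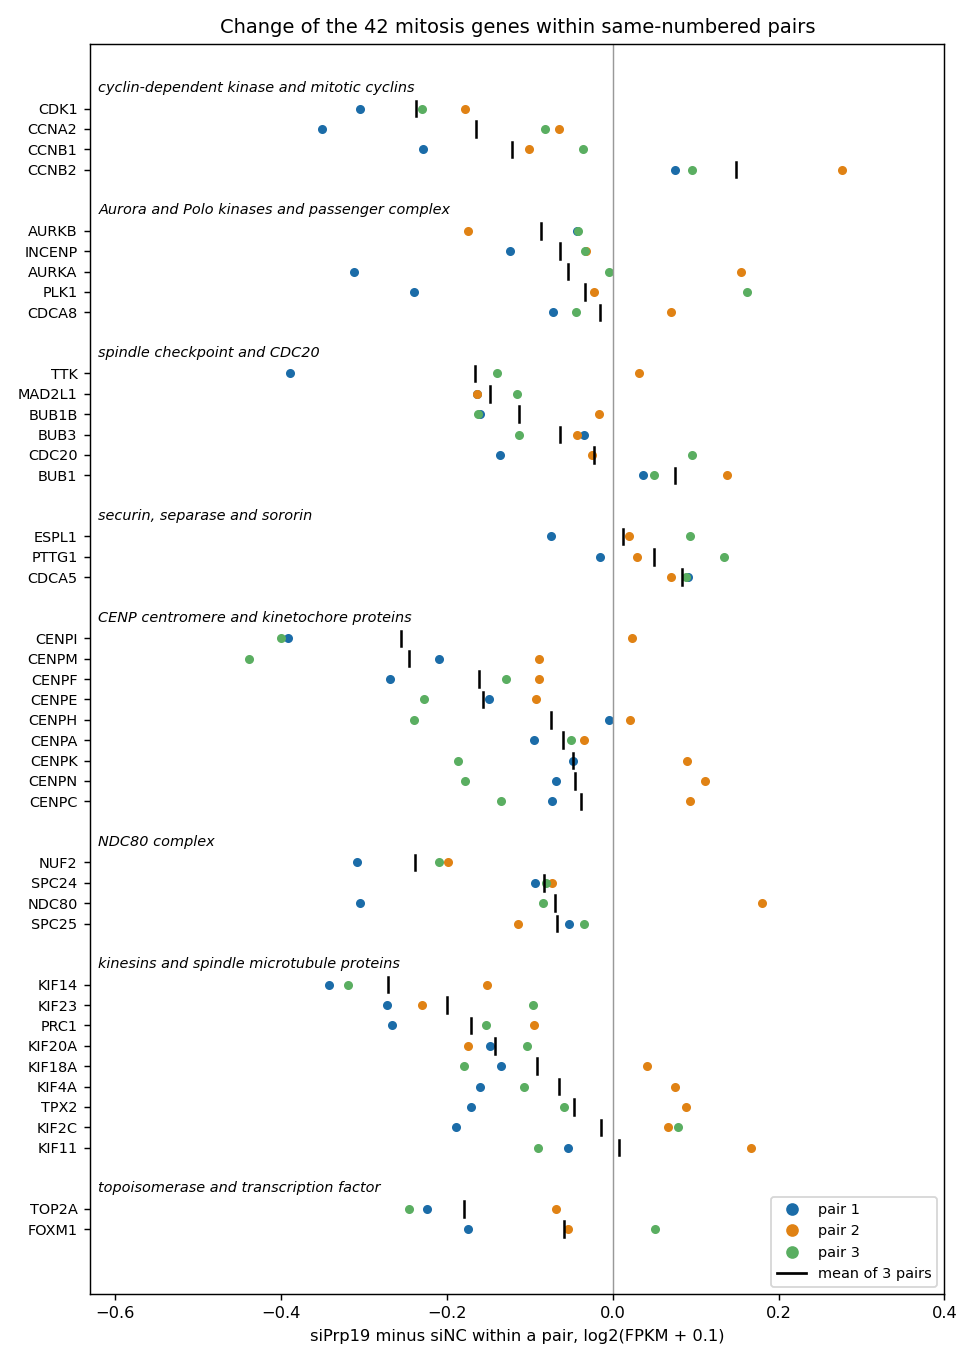
Change of each of the 42 genes within same-numbered pairs, by role (x axis, siPrp19 minus siNC on log2(FPKM + 0.1), coloured points for pairs 1 to 3, black bar for their mean). Most bars lie between −0.27 and 0, pair 1 is often the lowest point, and CCNB2, BUB1 and CDCA5 have all 3 points above 0.

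The recovered reads, tested with limma voom and the replicate block, gave calls where the FPKM values did not. In that fit CDK1, NUF2, KIF14 and TOP2A fell, which is 4 of the 42 genes, and 0 rose, where 634 of 14432 genes (4.39%) fell. KIF14 fell by 0.28 on the log2 scale (standard error 0.065, adjusted p = 0.00655 from limma voom with the block). CDK1 had an adjusted p of 0.0078, NUF2 of 0.0108 and TOP2A of 0.0247 in the same limma fit. The calls were lost without pair 1. Without replicate 1 none of the 42 was called, beside 1.37% of all genes that fell, and the changes of the 4 genes were −0.16 to −0.25. Without replicate 2 the same 4 fell, beside 2.85% of all genes. Without replicate 3 there were 7, which lacked TOP2A and added CCNA2, CENPF, KIF23 and PRC1, and the share of all genes that fell was also higher, at 5.97%. Voom without the block called 0 genes, with 198 at an unadjusted p under 0.05. Among the markers of other cell types, HBB also fell by 2.19 on the log2 scale in voom with the block (adjusted p = 5.54e-05 from limma), with 438, 67 and 49 reads with siNC and 92, 41 and 0 with siPrp19. EPCAM was higher in every siPrp19 sample than in any siNC sample, with 1.75, 1.78 and 1.34 FPKM with siNC and 2.48, 1.79 and 2.00 FPKM with siPrp19, and was not called (adjusted p = 0.221 in that limma fit). The part of such differences in the values of the mitotic genes was not tested.

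The kinase that drives mitotic entry and its cyclins differed in sign. CDK1 (ENSG00000170312, chromosome 10 from 60778331 to 60794852, plus strand, GENCODE release 29 on GRCh38) had 34.1, 35.0 and 35.7 FPKM with siNC and 27.6, 31.0 and 30.4 FPKM with siPrp19 in replicates 1, 2 and 3. All siPrp19 samples were below all siNC samples, and the siPrp19 mean was 84.9% of siNC. Its log2 change was −0.24, with a standard error of 0.11 by limma without the block and 0.048 with it (adjusted p = 0.202 from limma with the block). Cyclin A2, encoded by CCNA2, acts in S phase and early mitosis. It had 36.5, 34.2 and 37.7 FPKM with siNC and 28.6, 32.7 and 35.6 FPKM with siPrp19, lower in each pair but with overlapping groups, and pair 1 (−0.35) stood apart from pairs 2 and 3 (−0.06 and −0.08). CCNB1, the main B-type cyclin of mitotic entry and the highest of the 4 with siNC, had 59.0, 64.5 and 68.9 FPKM with siNC and 50.3, 60.1 and 67.2 FPKM with siPrp19. Its groups overlapped widely, but it was lower in each pair, by 0.23, 0.10 and 0.04 on the log2 scale. The mean difference of CCNB1 was −0.12, with a standard error of 0.15 by limma without the block and 0.053 with it (adjusted p = 0.354 from limma with the block). CCNB2, the other B-type cyclin (ENSG00000157456, chromosome 15 from 59105078 to 59125045, plus strand), was higher in every pair. It had 32.1, 30.3 and 33.1 FPKM with siNC and 33.8, 36.7 and 35.4 FPKM with siPrp19, with no overlap. Pair 2 held the largest difference (0.28, against 0.07 and 0.10), and neither the block (adjusted p = 0.321 from limma) nor voom with the block (adjusted p = 0.151) called it.

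**Figure D2:**
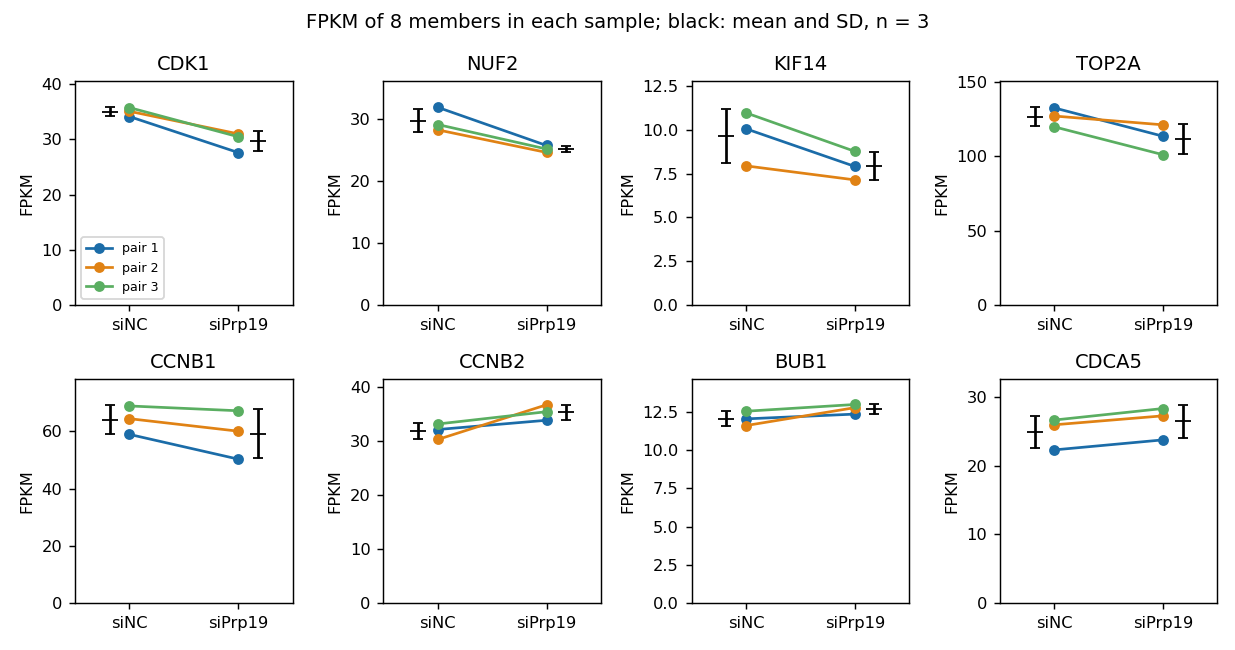
FPKM (y axis, from 0) of CDK1, NUF2, KIF14, TOP2A, CCNB1, CCNB2, BUB1 and CDCA5 in each sample, with a line for each same-numbered pair and the mean ± SD of each group in black (n = 3). The lines slope down in every pair for the first 5 genes and up for CCNB2, BUB1 and CDCA5, and the groups are apart for CDK1, NUF2 and CCNB2 among these 8.

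Differences were smallest, by the largest mean in the group, for the Aurora and Polo kinases with the passenger complex and for the securin group. All 5 means of the Aurora, Polo and passenger genes were below 0, from −0.09 for AURKB to −0.02 for CDCA8, with a median of −0.05, and 2 of the 5, AURKB and INCENP, were lower in all 3 pairs. AURKA, the Aurora kinase of the spindle poles, had 19.96, 18.3 and 20.1 FPKM with siNC and 16.1, 20.4 and 20.02 FPKM with siPrp19. It was 0.31 lower in pair 1, 0.15 higher in pair 2 and 0.0046 lower in pair 3. PLK1, the Polo kinase that acts from mitotic entry to cytokinesis, had 21.6, 22.0 and 20.3 FPKM with siNC and 18.3, 21.6 and 22.8 FPKM with siPrp19, with pair changes of −0.24, −0.02 and 0.16. The sign of the change thus differed between pairs for both kinases. AURKB, the catalytic subunit of the passenger complex, had 29.7, 25.1 and 30.1 FPKM with siNC and 28.8, 22.2 and 29.2 FPKM with siPrp19. INCENP, the scaffold of that complex and the highest of the 5 with siNC, had 30.1, 33.2 and 30.4 FPKM with siNC and 27.7, 32.4 and 29.7 FPKM with siPrp19. In both genes the replicates differed more than the groups did.

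Among the checkpoint genes, 3 of 6 were lower in all pairs (BUB1B, BUB3 and MAD2L1), 1 was higher in all pairs (BUB1), and the median was −0.09. MAD2L1, which encodes the Mad2 protein that holds back the anaphase-promoting complex, had 19.7, 19.5 and 26.4 FPKM with siNC and 17.6, 17.4 and 24.3 FPKM with siPrp19. Its pair changes of −0.16, −0.16 and −0.12 were close to each other, although replicate 3 was far above replicates 1 and 2 in both groups. The 2 paralogs BUB1B and BUB1 had means of opposite sign. BUB1B (BubR1) had 20.8, 17.3 and 26.2 FPKM with siNC and 18.6, 17.1 and 23.4 FPKM with siPrp19, whereas BUB1 had 12.1, 11.6 and 12.6 FPKM with siNC and 12.4, 12.8 and 13.0 FPKM with siPrp19. Neither difference passed a test, and the groups overlapped in both. TTK, the Mps1 kinase that starts checkpoint signalling, was 0.39 lower in pair 1, 0.03 higher in pair 2 and 0.14 lower in pair 3. CDC20, the activator of the anaphase-promoting complex that the checkpoint inhibits, was the highest of the 6, with 43.4, 43.1 and 47.1 FPKM with siNC and 39.5, 42.4 and 50.4 FPKM with siPrp19. The mean change of CDC20 was −0.02, and its pairs ran from −0.14 to 0.10.

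The genes that guard or cut sister chromatid cohesion were the only role group with every mean above 0. PTTG1 encodes securin, the inhibitor of separase, and had 44.1, 40.5 and 45.5 FPKM with siNC and 43.6 and 41.4 FPKM in siPrp19 replicates 1 and 2. It was highest in siPrp19 replicate 3, 0.13 above its pair on the log2 scale, and its mean change was 0.05. ESPL1, separase itself, had a mean change of 0.01 and pairs from −0.07 to 0.09. CDCA5, which encodes sororin, a protein that stabilises cohesin on chromatin, had 22.3, 25.97 and 26.7 FPKM with siNC and 23.8, 27.3 and 28.3 FPKM with siPrp19. It was higher by 0.09, 0.07 and 0.09, the most even set of pair changes after that of SPC24, but small beside the spread of its replicates, so that the groups overlapped (standard error 0.13 by limma without the block and 0.043 with it, adjusted p = 0.414 with the block). All 3 genes rested on at least 1436 reads per sample.

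All 9 CENP genes, which encode proteins of the centromere and the kinetochore, had means below 0 (median −0.07), and 4 of them were lower in every pair, CENPA, CENPE, CENPF and CENPM. CENPF, a large protein of the outer kinetochore and the highest of the 9, had 46.5, 43.8 and 46.9 FPKM with siNC and 38.6, 41.2 and 42.9 FPKM with siPrp19, with no overlap between the groups. Its mean change was −0.16, with a standard error of 0.11 by limma without the block and 0.053 with it. The adjusted p of CENPF was 0.271 from limma with the block and 0.0513 by voom with the block. CENPM, of the constitutive centromere network, had 10.0, 7.31 and 14.1 FPKM with siNC and 8.66, 6.87 and 10.4 FPKM with siPrp19, so that the samples of a group differed more than the groups. CENPI, of the same network, was the lowest of the 42 after CENPC and had a mean change of −0.26, with −0.39 and −0.40 in pairs 1 and 3 and 0.02 in pair 2. CENPE, the kinesin of the outer kinetochore, had a mean change of −0.16, and CENPA, the histone variant that marks the centromere, had −0.06. CENPC, CENPH, CENPK and CENPN lay between −0.07 and −0.04, each above 0 in pair 2.

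The NDC80 complex is the microtubule-binding rod of the kinetochore, made of NDC80 with NUF2 and of SPC24 with SPC25. NUF2 (ENSG00000143228, chromosome 1 from 163266576 to 163355764, plus strand) had 31.9, 28.2 and 29.1 FPKM with siNC and 25.7, 24.6 and 25.1 FPKM with siPrp19. Every siPrp19 sample was below every siNC sample, at 84.6% of the siNC mean, with pair changes of −0.31, −0.20 and −0.21. Its partner NDC80 had 6.94, 5.66 and 7.56 FPKM with siNC and 5.60, 6.43 and 7.12 FPKM with siPrp19, which is lower in pairs 1 and 3 and higher by 0.18 in pair 2. SPC24 differed by −0.09, −0.07 and −0.08 and SPC25 by −0.05, −0.11 and −0.03, each lower in all pairs with widely overlapping groups. The 4 subunits were thus 3 of 4 lower in all pairs, with levels from 6.72 FPKM (NDC80) to 29.7 FPKM (NUF2) in the siNC mean.

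Of the kinesins and microtubule proteins, 4 of 9 were lower in all pairs (21.3% of all genes tested), KIF14, KIF23, PRC1 and KIF20A. For 3 of the 9 every siPrp19 sample lay below every siNC sample, against 2.84% of all genes tested. KIF14, a kinesin of cytokinesis (ENSG00000118193, chromosome 1 from 200551497 to 200620734, minus strand) had 10.05, 7.94 and 10.96 FPKM with siNC and 7.90, 7.14 and 8.76 FPKM with siPrp19. Its mean change was the largest of the 42, −0.27, but siNC replicate 2 lay below siPrp19 replicate 3, so the groups overlapped. KIF23, the motor of the centralspindlin complex, had 10.4, 11.1 and 10.98 FPKM with siNC and 8.59, 9.45 and 10.3 FPKM with siPrp19. PRC1, which bundles antiparallel microtubules, had 30.2, 30.03 and 33.1 FPKM with siNC and 25.1, 28.1 and 29.8 FPKM with siPrp19. KIF20A, a kinesin that works with the passenger complex, had 29.4, 26.8 and 28.7 FPKM with siNC and 26.5, 23.7 and 26.7 FPKM with siPrp19. In KIF23, PRC1 and KIF20A all siPrp19 samples were below all siNC samples, narrowly in KIF20A (26.8 against 26.7 FPKM). The other 5 were not lower in every pair. KIF11, which pushes the poles apart, had a mean change of 0.01, KIF2C, a microtubule depolymerase, had −0.01, and KIF18A and KIF4A had −0.09 and −0.06. TPX2, which activates Aurora A and was the highest of the 9, had 69.4, 73.2 and 69.1 FPKM with siNC and 61.6, 77.8 and 66.3 FPKM with siPrp19, with siPrp19 replicate 2 the highest of all samples and siPrp19 replicate 1 the lowest.

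TOP2A, the topoisomerase that untangles sister chromatids (ENSG00000131747, chromosome 17 from 40388516 to 40417950, minus strand), was the highest of all 42 genes. It had 132, 127 and 119.8 FPKM with siNC and 113, 121 and 101 FPKM with siPrp19, lower in each pair by 0.22, 0.07 and 0.25 on the log2 scale. The groups overlapped, since siPrp19 replicate 2 lay above siNC replicate 3. FOXM1, a transcription factor that drives many genes of mitosis, had 24.9, 22.8 and 29.7 FPKM with siNC and 22.1, 21.98 and 30.8 FPKM with siPrp19. Its mean change of −0.06 was a fraction of its limma standard error of 0.18 without the block. With the block the standard error of FOXM1 was 0.060, about the size of the change (adjusted p = 0.665 from limma with the block). FOXM1 was higher in pair 3.

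For much of this set replicate 3 differed from replicates 1 and 2 in the same direction in both groups. The median size of the difference between replicate 3 and replicates 1 and 2 with siNC was 0.14 on the log2 scale over the 42 genes and 0.31 over all genes tested, and that of the change with siPrp19 was 0.079 and 0.103. The change is averaged over 3 pairs and the replicate difference is taken within siNC alone, so these 2 sizes are not directly comparable. By size these genes thus differed less between replicates than the median gene, while the sign was mostly shared. The comparison of sizes was not matched for level, and 38 of the 42 had a siNC mean above the median of 5.79 FPKM. Replicate 3 had the highest value in both groups for 26 of the 42 genes, against 30.6% of all genes tested, and replicate 2 the lowest in both for 18 of the 42, against 26.3%. For the CENP genes these counts were 8 and 6 of 9. CENPK, a subunit of the constitutive centromere network, had 5.72, 3.00 and 8.07 FPKM with siNC and 5.53, 3.20 and 7.08 FPKM with siPrp19. On the log2 scale replicate 3 exceeded the mean of replicates 1 and 2 by 0.94 and 0.73 in the siNC and siPrp19 groups for CENPK, by 0.67 and 0.72 for SPC25 and by 0.54 and 0.56 for CENPA. The median of this difference over the 42 genes was 0.13 with siNC and 0.17 with siPrp19, against 0.012 and 0.022 over all genes, and over the 9 CENP genes it was 0.50 and 0.26. The shift was not particular to the 42. Over the 131 other mitosis and cell cycle genes described further on the median was 0.20 and 0.21. Among these it was 0.65 and 0.54 over 20 S phase and replication licensing genes, but 0.005 and −0.15 over 15 cohesin genes. Other genes lay the opposite way, with TTK lower in replicate 3 of both groups (−0.27 and −0.23), as were KIF2C (−0.30 and −0.16) and TOP2A (−0.12 and −0.21). The labels do not say what a replicate number stands for, and the cause of these differences was not tested.

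**Figure D3:**
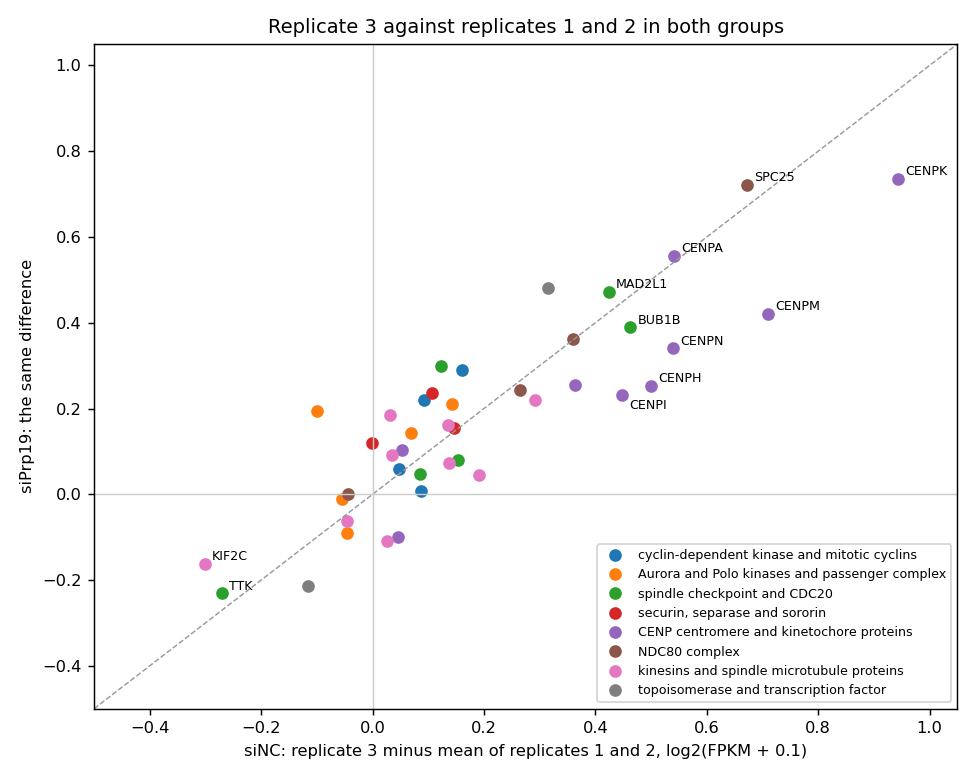
Difference of replicate 3 from the mean of replicates 1 and 2 in siNC (x axis) and in siPrp19 (y axis), log2(FPKM + 0.1), 1 point for each of the 42 genes, coloured by role, with the line of equality dashed. The difference is above 0 in both groups for 31 genes and below 0 in both for 7, and the CENP genes extend to 0.94 with siNC and lie mostly under the line.

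Beyond the 42, 132 further genes of mitosis and the cell cycle were listed by complex, of which 131 were tested (LIN37 had under 1 FPKM on average). Of these, 51 were lower and 6 higher in all 3 pairs, to be read against 21.3% and 19.2% of all genes, and the median was −0.06. By limma without and with the block 0 of the 131 were called, and by voom with the block 11 fell and 0 rose, where 4.39% of all genes fell. Without replicate 1, 2 or 3 there were 4, 7 and 11 genes of the 131 that fell, beside 1.37%, 2.85% and 5.97% of all genes, and without replicate 3 another 3 rose. ANLN, TYMS, SPDL1 and CKAP2 were called whichever pair was left out. The calls of SMC4, ARPP19 and MCM4 were lost without replicate 1 (adjusted p = 0.116, 0.204 and 0.184 from limma voom with the block). That of BIRC5 was lost without replicate 1 or 2 (0.432 and 0.105), and that of SMC2 without any 1 of the pairs (0.318, 0.054 and 0.107). The genes named from each list are those with the largest changes alike in all pairs, so their values are not a sample of the list, and CENPU and BIRC5 were added because they were called. The 18 subunits and regulators of the anaphase-promoting complex had a median of −0.05 with 5 lower in all pairs, among them CDC23 (−0.18), a subunit, and FBXO5 (−0.17), its inhibitor Emi1. The 15 cohesin genes had a median of −0.04, with 6 lower and 1 higher in all pairs. SGO1 (−0.25) and SGO2 (−0.22), the shugoshins that protect centromeric cohesin, were among the 6, and neither was called. The 8 condensin genes had a median of −0.05, and their common ATPase pair SMC4 (−0.27) and SMC2 (−0.20) fell in voom with the block (adjusted p = 0.00204 and 0.0356 from limma).

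Among the 25 other kinetochore genes, 13 were lower and 1 higher in all pairs, with a median of −0.07. SPDL1, the Spindly adaptor that brings dynein to kinetochores, had 14.95, 15.3 and 17.5 FPKM with siNC and 10.1, 11.4 and 14.5 FPKM with siPrp19, with no overlap. It changed by −0.41 and fell in voom with the block (adjusted p = 0.000209 from limma), as did CENPQ (−0.38, adjusted p = 0.0282) and CENPU (−0.22, adjusted p = 0.0326). The call of CENPU was lost without any 1 of the pairs (adjusted p = 0.0801 to 0.227 in the same limma fit) and that of CENPQ without replicate 1 or 2 (0.382 and 0.124). CENPO and CENPP, of the same centromere complex as both, were not called (−0.16 and −0.04). The 23 other spindle and cytokinesis genes had a median of −0.05 with 7 lower in all pairs. ANLN, which encodes anillin, the scaffold of the contractile ring, had 14.9, 12.4 and 14.5 FPKM with siNC and 9.43, 9.38 and 10.3 FPKM with siPrp19, a change of −0.52 with no overlap (adjusted p = 5.29e-06 from limma voom with the block, 0.190 from limma with the block). CKAP2, a microtubule-associated protein, changed by −0.34 and BIRC5, the survivin subunit of the passenger complex, by −0.20, and both fell in voom with the block (adjusted p = 0.000637 and 0.0294 from limma).

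The 13 mitotic entry regulators had a median of −0.06 with 6 lower in all pairs. ARPP19, an inhibitor of the phosphatase that opposes CDK1, changed by −0.22 and fell in voom with the block (adjusted p = 0.0112 from limma), while the kinase MELK differed by −0.19 and was not called. The 9 tested genes of the DREAM and MuvB complexes, which repress and activate CHR promoters, had a median of −0.07 with 4 lower in all pairs, among them RBL1 (−0.15) and LIN9 (−0.14), and 0 were called. The 20 genes of S phase and replication licensing had a median of −0.05, with 7 lower and 1 higher in all pairs. TYMS, the thymidylate synthase, had 10.99, 10.07 and 11.4 FPKM with siNC and 6.90, 6.78 and 8.01 FPKM with siPrp19, a change of −0.58 (adjusted p = 0.000109 from limma voom with the block). MCM4, of the replicative helicase, also fell, by 0.21 on the log2 scale, in that fit (adjusted p = 0.0121 from limma), though its groups overlapped.

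**Figure D4:**
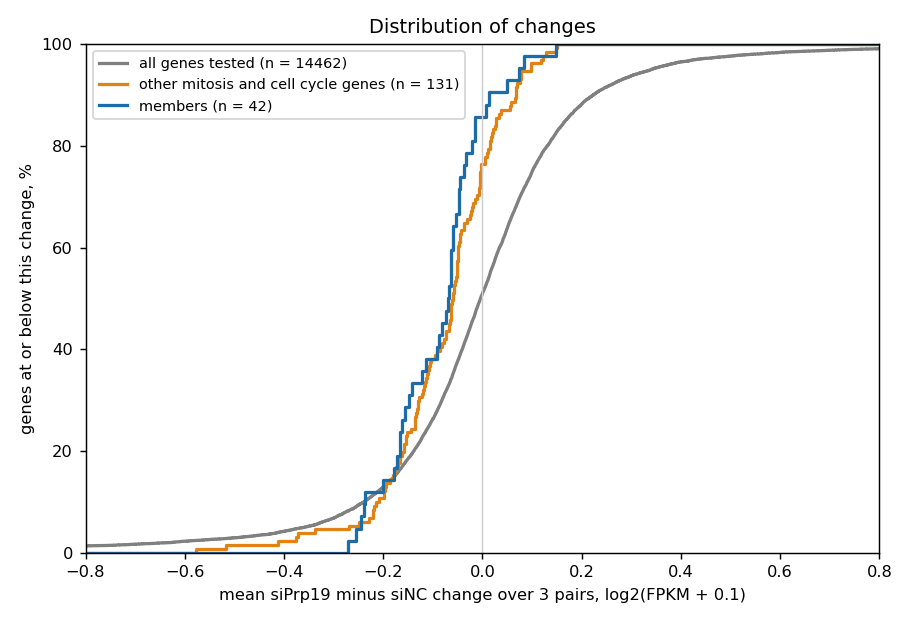
Cumulative share of genes (y axis, %) at or below a given mean change over the 3 pairs (x axis, siPrp19 minus siNC on log2(FPKM + 0.1)) for all 14462 genes tested, the 131 other mitosis and cell cycle genes and the 42 genes. The curve of the 42 genes is steep between −0.27 and 0.15 and crosses 0 at 36 of 42 genes, and the curve of all genes has longer tails on both sides.

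As Prp19 is a splicing factor, the number of exons was set beside the change. The 42 genes have 5 to 49 exon blocks (median 15) in GENCODE release 29, and across these genes the number correlated with the change at a Spearman rho of −0.20, against −0.02 across 11297 protein-coding genes tested. Genes share the 6 libraries and are not independent, so these values are a description.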

How the data were processed

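RNA-seq of 3 siNC and 3 siPrp19 samples of SK-N-BE (2) cells was used. The authors deposited FPKM values per Ensembl gene for each sample. The submitters' processing notes name HISAT2 2.0.5, featureCounts 1.5.0-p3 and hg38, and the annotation release and the strand setting are not given in the sources used here. The methods of the study speak of 3 biological replicates. Nothing in the labels says that the samples of a group were separate cultures, so p-values measure the spread between these samples. The 42 genes, the other lists, the tests and the rule for named genes were chosen with earlier results of these data known.

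Identifiers were matched to GENCODE release 29 (58039 of 58302). FPKM times exon length, divided by the worth of 1 read in each sample, was within 0.02 of a whole number in all samples for 96.0% of genes found and not all 0, and for 41 of the 42 (KIF23 was rounded). The 14462 genes whose mean reached 1 FPKM were tested on log2(FPKM + 0.1) with limma 3.58.1 in R 4.3.3 (lmFit, eBayes with trend) and Benjamini-Hochberg adjustment over all genes. The 0.1 added before the log2 understates changes of low genes. The main design had no block, after the methods of the study. The deviations of same-numbered samples from their group means correlated at r = 0.38, 0.57 and 0.64 over all genes in the 3 pairs, so the replicate numbers of the labels were taken as pairs and a replicate block was also fitted. limma voom was run on recovered reads with and without the block. Alternatives were a pseudocount of 1, no filter, a mean of at least 5 FPKM, TPM, quantile normalization and leaving out pairs and samples. Named genes were fixed regulators, the highest gene of each role group, the 8 largest changes alike in all pairs and up to 2 genes from each other list. Exact permutation tests used scipy 1.17.1 in Python 3.11.15, and figures matplotlib 3.10.9. Promoters were read from RefSeq tables. Protein sequences were not used here.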

Additional observations from a re-analysis of the deposited data

How the results depend on the processing

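The count of called genes, 0, and of called members of the 42, 0, was the same with a pseudocount of 1, no filter, a mean of at least 5 FPKM, TPM, quantile normalization, voom without the block and each pair or sample left out (0 to 0 genes). These fits did not call PRPF19 either, so their count of 0 does not show that the 42 were unchanged. With the replicate block 0 genes were called, 124 with the block and a mean of at least 5 FPKM (90 lower and 34 higher, 0 of the 42), and 1012 with voom and the block (634 lower and 378 higher, 4 of the 42, 6 with at least 10 reads in all). Leaving out a pair in voom with the block gave 0 to 7 of the 42. The block changed no other call of the 42. PRPF19 passed in both fits with calls (adjusted p = 0.0176 and 1.38e-11 from limma). The median change of the 42 was −0.064 with TPM and −0.057 with quantile normalization. It ran from −0.158 without siPrp19 replicate 3 (−0.157 without siNC replicate 2) to −0.027 without siNC replicate 3. The count lower in all pairs was 20, or 17 with quantile normalization. CENPC and CENPI were not tested at a mean of at least 5 FPKM. In limma on FPKM the direction of 13 genes with small changes depended on the setting, and in voom with the block FOXM1 was also above 0 without replicate 1 (0.0013). With quantile normalization CDCA8 was at 0.0034. With a pair left out, the log2 change ran from −0.16 to 0.075 for AURKA, −0.13 to 0.069 for PLK1, −0.058 to 0.013 for CDCA8, −0.081 to 0.035 for CDC20, −0.028 to 0.056 for ESPL1, −0.10 to 0.010 for CENPC, −0.12 to 0.0080 for CENPH, −0.12 to 0.021 for CENPK, −0.12 to 0.021 for CENPN, −0.19 to 0.048 for NDC80, −0.072 to 0.056 for KIF11, −0.061 to 0.073 for KIF2C and −0.11 to 0.015 for TPX2, and the cause was not tested. With 3 pairs and changes of this size, genes that miss the threshold are not shown to be unchanged.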
